A study of Rattus norvegicus with 64 samples.

Results

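Apolipoprotein E (ApoE) is the main lipid carrier of the brain, and it was followed here together with the genes that load, bind, sort and digest its particles. The members were chosen by name, as 9 symbols, and 8 of them matched a row of the count tables, out of 32552 rows other than spike-ins. They are the rat Apoe gene, the row ApoE3_donor for the introduced ApoE sequence, the receptor Lrp1, the sorting receptor Sort1, the lipid exporters Abca1 and Abcg1, the second brain apolipoprotein Clu and the lipase Lpl. Sorl1 was not analysed here.

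The reads came from bulk RNA of the hippocampus (HPC) and the cortex (CE) of 32 rats, which gave 64 libraries. One set of rats carried ApoE3 and the other ApoE4, and no group without an introduced form was present. Doxorubicin, an anthracycline chemotherapy drug, was given at 2 mg/kg per week for 4 weeks from 5 weeks of age. Control rats were labelled PBS, and tissue was collected 5 to 6 weeks past the final dose. There were 8 groups (2 regions, 2 genotypes, 2 treatments) with 8 libraries apiece, 4 male and 4 female. The labels give neither the strain, nor the promoter, nor how the ApoE forms were introduced. Rats of 1 genotype, sex and treatment have neighbouring numbers, so a batch that followed the numbering cannot be told apart from these factors.

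Library totals ran from 10836181 to 20397553 counts, and ERCC spike-ins took 0.932% to 2.44%. The dentate marker Prox1 held 67.8 to 114 CPM (counts scaled to a common library total) in hippocampus and 10.3 to 18.8 CPM in cortex, as the region labels say. Among them 8 hippocampal and 3 cortical libraries stood apart by the summed level of 12 matched choroid plexus markers, which passed 500 CPM there. Where a call for a main comparison changed without these 11 libraries, both values are given; the interaction terms were fitted only with them.

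As background, astrocytes are the main source of ApoE in the brain, and microglia make it too. ABCA1 and ABCG1 move cholesterol and phospholipid out of the cell onto ApoE, and cells take the particles up through receptors of the LDL receptor family, of which LRP1 is the large, widely expressed one. Sterol-activated LXR receptors, paired with RXR, switch on ABCA1, ABCG1, ApoE and lipoprotein lipase when cell cholesterol is high. ApoE4 is the form known for the higher risk of Alzheimer disease and is described as poorly lipidated compared with ApoE3.

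Of the 2 members that differed by genotype in the same direction in cortex, Abca1 is a textbook LXR target, so the sequence before its start is shown with that of Lrp1. The sequences are the 250 bases before the start of each gene, read on its own strand, from RefSeq on build GRCr8 (Abca1 chr5:72596474-72596723, minus strand; Lrp1 chr7:65346197-65346446, minus strand). Capitals mark the pattern that was searched, TGACC, 4 free bases and GTAACC. As split here its fixed parts are not repeats of each other. Split 1 base later, the same letters with the next base read TGACCG, 4 bases and TAACCc, 2 parts that resemble each other. The split chosen for the search therefore does not decide whether the marked letters are the direct repeat that LXR with RXR is known to bind before this gene. That was not tested.
Abca1: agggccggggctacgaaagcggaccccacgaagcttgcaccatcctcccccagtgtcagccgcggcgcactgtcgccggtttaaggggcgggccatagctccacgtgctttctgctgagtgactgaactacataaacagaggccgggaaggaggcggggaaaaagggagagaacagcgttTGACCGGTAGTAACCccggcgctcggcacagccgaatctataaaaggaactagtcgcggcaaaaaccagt
Lrp1: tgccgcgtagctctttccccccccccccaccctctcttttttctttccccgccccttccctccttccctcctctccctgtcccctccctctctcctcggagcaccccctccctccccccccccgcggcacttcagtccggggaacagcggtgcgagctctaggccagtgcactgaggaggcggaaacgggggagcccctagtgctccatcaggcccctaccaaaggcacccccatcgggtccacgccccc
The pattern was chosen from letters described for Abca1, so finding it there is no result. Searched on both strands over windows from 250 bases before to 50 after a start, it was in 9 of 33469 promoters, or 0.0269%. Of the 7 named rat genes, 4 had an entry, with 6 promoters in all, and only 1 of those 6 held the pattern. A match is a description of the letters and not of binding.

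The introduced ApoE carried almost all ApoE reads in both genotypes. In hippocampus of PBS rats the donor row ran from 2265 to 3152 CPM in ApoE3 (median 2552) and from 1761 to 2405 CPM in ApoE4 (median 2063). In cortex of PBS rats it ran from 1279 to 2246 CPM in ApoE3 (median 1780) and from 1231 to 1737 CPM in ApoE4 (median 1534). The group ranges overlap in both regions, but 6 of 8 ApoE4 hippocampal libraries lay below the lowest ApoE3 one, and all 8 ApoE4 cortical libraries lay below the ApoE3 median.

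Under doxorubicin the donor row held 2130 to 2620 CPM in ApoE3 hippocampus (median 2352) and 1738 to 2402 CPM in ApoE4 hippocampus (median 1912). In cortex it held 1437 to 1965 CPM in ApoE3 (median 1649) and 1221 to 1650 CPM in ApoE4 (median 1377). In each region 7 of 8 ApoE4 libraries from doxorubicin rats lay below the lowest ApoE3 one. Ordered by their medians, the 8 groups ran from ApoE3 PBS hippocampus down to ApoE4 doxorubicin cortex, hippocampus above cortex throughout. Of the 7 pairs of neighbours in this order, 5 differed by less than 1 SD of a group, and the ranges of all 7 pairs overlapped.

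**Figure D1:**
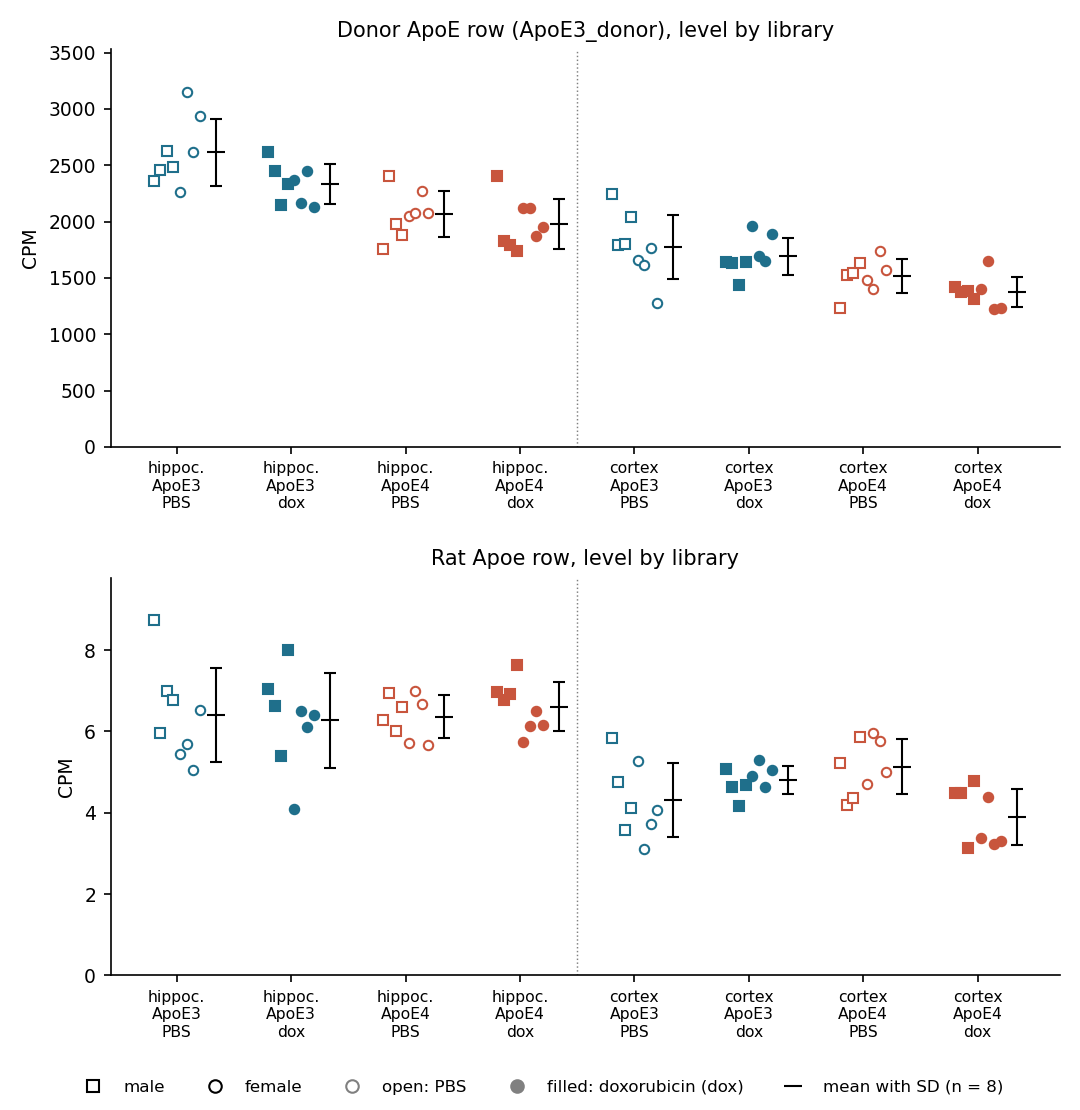
Level of the donor ApoE row (top) and of the rat Apoe row (bottom) in CPM for each of 64 libraries, by region, genotype and treatment; squares are males, circles females, filled symbols doxorubicin, and the bar is the mean with SD (n = 8). The donor row sits at 1221 to 3152 CPM, highest in ApoE3 hippocampus and lowest in ApoE4 cortex, whereas the rat row stays between 3.11 and 8.73 CPM.

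The donor row was lower in ApoE4 than in ApoE3 rats in all 4 comparisons of genotype, with edgeR's quasi-likelihood test and Benjamini-Hochberg adjustment over all tested genes. In PBS rats the log2 difference was -0.34 in hippocampus (SE 0.070, 0.79-fold, adjusted p = 0.00251, n = 8 and 8) and -0.23 in cortex (SE 0.080, 0.853-fold, adjusted p = 0.0400). In doxorubicin rats it was -0.24 in hippocampus (SE 0.070, adjusted p = 0.0472) and -0.31 in cortex (SE 0.080, adjusted p = 0.00738). The row is named for the ApoE3 form and reads of both genotypes were counted on it. Whether reads from ApoE4 transcripts align to it as well as those from ApoE3 was not tested, and this cannot be told apart from genotype. In bulk tissue, fewer cells that make ApoE and less ApoE RNA per cell cannot be told apart either.

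These 4 calls differ in how firmly they hold. Leaving out each of 32 libraries in turn kept the calls in PBS hippocampus and in doxorubicin cortex in all 32 fits. In PBS cortex the call remained in 21 of 32 fits, with an adjusted p of up to 0.117 without the ApoE3 library of rat 37. It was also lost without ApoE3 PBS rats 41, 43, 45 or 59, ApoE4 PBS rats 1, 3, 4, 19 or 22 or ApoE4 doxorubicin rat 13, and when only the PBS libraries were fitted (adjusted p = 0.0622). In doxorubicin hippocampus it remained in 10 of 32 fits, with an adjusted p of up to 0.105 without the ApoE3 library of rat 47. The other fits that lost it were without ApoE3 PBS rats 41, 43, 45 or 59, ApoE3 doxorubicin rats 49, 51, 52, 65 or 68, ApoE4 PBS rats 4, 19, 22, 24 or 26, or any ApoE4 doxorubicin rat but 10. There it was also lost with DESeq2 size factors (adjusted p = 0.0528) and with no low count filter (0.0731). Without the libraries high in choroid plexus markers the 4 log2 differences were -0.35, -0.24, -0.29 and -0.28, in the order PBS hippocampus, PBS cortex, doxorubicin hippocampus and doxorubicin cortex, with adjusted p from 0.0096 to 0.0476.

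The rat Apoe row, the endogenous gene, held 39 to 139 counts per library, 0.172% to 0.438% of the reads on both ApoE rows together. It ran from 5.06 to 8.73 CPM in ApoE3 and from 5.68 to 7.00 CPM in ApoE4 hippocampus of PBS rats, with fully overlapping ranges and a log2 difference of 0.00 (SE 0.094, adjusted p = 0.999). In cortex of PBS rats it ran from 3.11 to 5.83 CPM in ApoE3 and from 4.20 to 5.95 CPM in ApoE4, a log2 difference of 0.24 (SE 0.121, adjusted p = 0.162). In doxorubicin cortex it was 4.17 to 5.31 CPM in ApoE3 and 3.14 to 4.79 CPM in ApoE4, a log2 difference of -0.32 (SE 0.122, adjusted p = 0.0852). The rat and the introduced ApoE sequences are related, and how reads were split between the 2 rows is not given in the sources used here, so the values of the rat row are uncertain.

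The ratio of the 2 rows within a library does not depend on how libraries are scaled. The donor row held 270 to 555 times the counts of the rat row in ApoE3 PBS hippocampus and 280 to 367 times in ApoE4 PBS hippocampus. In PBS cortex the ratio was 315 to 518 in ApoE3 and 235 to 364 in ApoE4. The mean log2 ratio was lower in ApoE4 by -0.35 in hippocampus (8.34 against 8.69; two-sided exact permutation p = 0.0163, adjusted over 6 comparisons 0.0490, n = 8 and 8) and by -0.49 in cortex (8.21 against 8.70; exact permutation p = 0.00357, adjusted 0.0214). In doxorubicin rats, not tested, the mean log2 ratio was 8.22 in ApoE4 against 8.56 in ApoE3 hippocampus, but 8.48 against 8.46 in cortex, so a lower ratio in ApoE4 was not seen in every setting. With medians in place of means, the hippocampal difference was -0.31 and its adjusted exact permutation p was 0.0725. Doxorubicin against PBS gave -0.13 and -0.11 in ApoE3 and ApoE4 hippocampus, -0.24 in ApoE3 cortex and 0.27 in ApoE4 cortex, with adjusted exact permutation p from 0.0805 to 0.416.

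Doxorubicin was accompanied by no called change in any member. In each region and genotype 0 of 8 members passed with edgeR, against a background of 0% (0 of 14899 and 0 of 14873 genes in ApoE3 and ApoE4 hippocampus, 0 of 14775 and 0 of 14838 in ApoE3 and ApoE4 cortex). At an unadjusted p under 0.05 there were 1530, 1098, 1366 and 1308 genes in that order, of which 2, 1, 1 and 3 were members. DESeq2 called 145, 1, 77 and 37 genes, and among members only Lrp1 in ApoE3 cortex.

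The member nearest to a call was Lrp1 in ApoE3 cortex. It ran from 743 to 980 CPM in PBS (median 868) and from 790 to 1084 CPM under doxorubicin (median 976). The ranges overlap, with 4 of 8 doxorubicin libraries above the highest PBS one. The log2 change was 0.18 (SE 0.043, 95% interval 0.09 to 0.26, adjusted p = 0.172 with edgeR), and DESeq2 gave 0.17 with an adjusted p of 0.0143. The authors' deposited table gives Lrp1 a log2 fold change of 0.18 and an adjusted p of 0.446 in this comparison. In ApoE4 cortex the Lrp1 change was 0.03 (95% interval -0.04 to 0.11), and the genotype by treatment term was -0.15 (SE 0.063, adjusted p = 0.879).

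Neither ApoE row passed the test for doxorubicin. The donor row had log2 changes of -0.16 (95% interval -0.29 to -0.04) and -0.07 (-0.21 to 0.08) in ApoE3 and ApoE4 hippocampus, and of -0.06 (-0.23 to 0.11) and -0.15 (-0.27 to -0.02) in ApoE3 and ApoE4 cortex, with adjusted p from 0.381 to 0.862. The sum of 12 meningeal fibroblast markers, none at 0, moved the same way in 3 of these 4 comparisons. Its median was 508 CPM in PBS (183 to 1172) and 175 CPM under doxorubicin (158 to 563) in ApoE3 hippocampus, and 415 (198 to 1211) and 221 CPM (177 to 1931) in ApoE4 hippocampus. In cortex it was 253 (201 to 330) and 292 CPM (206 to 551) in ApoE3, and 491 (232 to 591) and 299.7 CPM (171 to 678) in ApoE4. None of the 12 markers was called in any of the 4 comparisons, and their part in the shifts of the donor row and of Sort1 was not tested. The rat Apoe row had the largest fitted shift of any member, -0.40 in ApoE4 cortex (SE 0.125, 95% interval -0.65 to -0.16, adjusted p = 0.376). There all 8 doxorubicin libraries (3.14 to 4.79 CPM) lay below the PBS median of 5.12 CPM, and 4 of 8 below the lowest PBS library. In ApoE3 cortex the same row was at 0.15 (-0.09 to 0.40), with all 8 doxorubicin libraries above the PBS median of 4.09 CPM. The genotype by treatment term for this row in cortex was -0.56 (SE 0.172, adjusted p = 0.879 with edgeR).

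Sort1 encodes sortilin, a receptor that carries proteins between the Golgi and endosomes and binds ApoE particles. In ApoE3 hippocampus it ran from 828 to 905 CPM in PBS and from 873 to 1013 CPM under doxorubicin, and 5 of 8 doxorubicin libraries lay above the highest PBS one. Its log2 change of 0.11 (SE 0.037, 95% interval 0.04 to 0.18) had an adjusted p of 0.266. Abca1 in ApoE4 hippocampus ran from 64.4 to 90.0 CPM in PBS and from 44.9 to 91.1 CPM under doxorubicin, a log2 change of -0.21 (SE 0.091, adjusted p = 0.646). In the other 3 comparisons Abca1 lay between -0.05 and 0.13. Abcg1, which exports cholesterol to particles already loaded by ABCA1, had fitted changes between -0.01 and 0.08, and its 4 intervals at 95% lay within -0.12 and 0.17. Clu lay between -0.17 and 0.07 and Lpl between -0.00 and 0.17.

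**Figure D2:**
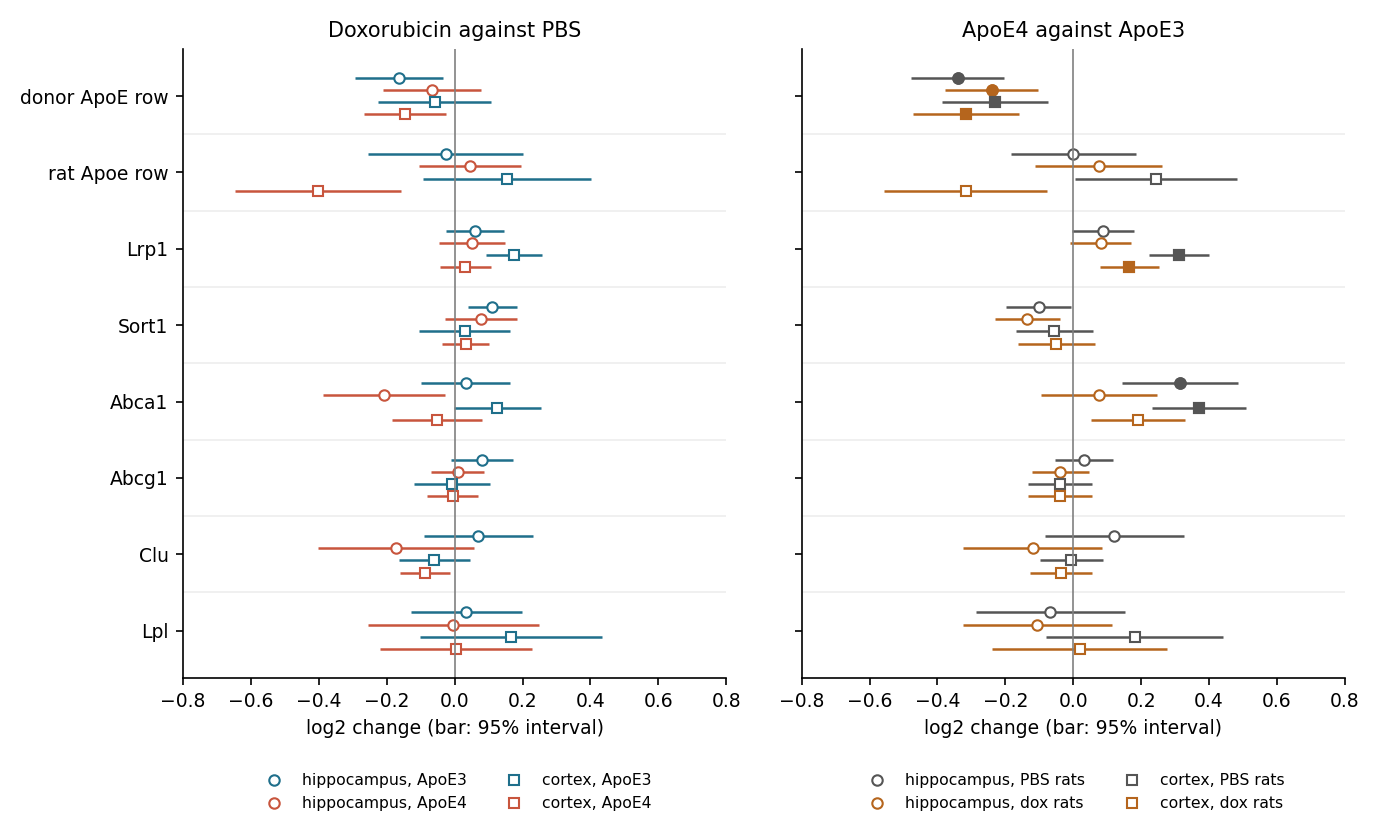
Fitted log2 change of 8 members for doxorubicin against PBS (left) and for ApoE4 against ApoE3 (right), with 95% intervals; circles are hippocampus, squares cortex, and filled symbols have an adjusted p under 0.05 with edgeR. On the left every symbol is open, and on the right the donor row lies below 0 in all 4 comparisons while Lrp1 and Abca1 lie above 0, filled in cortex of PBS rats at 0.31 and 0.37.

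The genotype by treatment terms, which ask whether doxorubicin acts differently in ApoE4 than in ApoE3 rats, called 0 of 8 members in either region. The background was 0% in both (0 of 15416 genes in hippocampus and 0 of 15315 in cortex with edgeR; 1261 and 834 genes at an unadjusted p under 0.05; 2 and 0 genes with DESeq2). In hippocampus the terms for members ran from -0.24 for Abca1 and Clu to 0.10 for the donor row, and in cortex from -0.56 for the rat Apoe row to 0.01 for Sort1. The region by treatment terms called 0 of 8 members in ApoE3 and in ApoE4 rats, where the background was also 0% (0 of 15428 and 0 of 15432 genes; 1235 and 554 at an unadjusted p under 0.05; 126 and 0 with DESeq2).

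Lrp1 and Abca1, which take up and export lipid, were higher in ApoE4 than in ApoE3 cortex. Lrp1 in PBS rats ran from 743 to 980 CPM in ApoE3 (median 868) and from 925 to 1145 CPM in ApoE4 (median 1075), with 7 of 8 ApoE4 libraries above the highest ApoE3 one. The log2 difference was 0.31 (SE 0.045, 1.24-fold, 95% interval 1.17 to 1.32, adjusted p = 4.43e-06). Abca1 ran from 44.7 to 60.7 CPM in ApoE3 (median 49.3) and from 59.4 to 72.9 CPM in ApoE4 (median 64.5), with 6 of 8 ApoE4 libraries above the highest ApoE3 one. Its log2 difference was 0.37 (SE 0.071, 1.29-fold, 95% interval 1.17 to 1.42, adjusted p = 0.000321).

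Both calls held in all 32 fits that left out 1 library. In doxorubicin rats Lrp1 held 790 to 1084 CPM in ApoE3 and 1024 to 1162 CPM in ApoE4 cortex, a log2 difference of 0.16 (SE 0.044, adjusted p = 0.0116). Abca1 held 47.1 to 65.1 CPM in ApoE3 and 53.5 to 76.6 CPM in ApoE4, a log2 difference of 0.19 (SE 0.071, adjusted p = 0.0691), which became 0.24 (adjusted p = 0.0292) without the libraries high in choroid plexus markers. It also passed without ApoE3 rats 59 or 72 or ApoE4 rats 11 or 29. Whether the genotype differences in PBS and in doxorubicin rats differ is the genotype by treatment term, which for Abca1 in cortex was -0.18 (SE 0.10, adjusted p = 0.879).

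In hippocampus Abca1 was the member that rose. In PBS rats it ran from 54.9 to 74.6 CPM in ApoE3 (median 64.5) and from 64.4 to 90.0 CPM in ApoE4 (median 79.5), with 6 of 8 ApoE4 libraries above the highest ApoE3 one. The log2 difference was 0.31 (SE 0.087, 1.24-fold, adjusted p = 0.0340). The call was lost in 8 of 32 fits that left out 1 library, with an adjusted p of up to 0.0781 without the ApoE3 library of rat 41; the others were those without ApoE3 rats 56 and 58 and ApoE4 rats 3, 7, 22, 24 and 26. Without the libraries high in choroid plexus markers it was 0.28 with an adjusted p of 0.239. Lrp1 differed by 0.09 (95% interval -0.00 to 0.18, adjusted p = 0.356) in hippocampus of PBS rats. The region by genotype term for Lrp1, hippocampus minus cortex, was -0.21 (SE 0.078, adjusted p = 0.277). In doxorubicin hippocampus Abca1 held 57.6 to 74.9 CPM in ApoE3 and 44.9 to 91.1 CPM in ApoE4, a log2 difference of 0.08 (SE 0.087, adjusted p = 0.739).

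**Figure D3:**
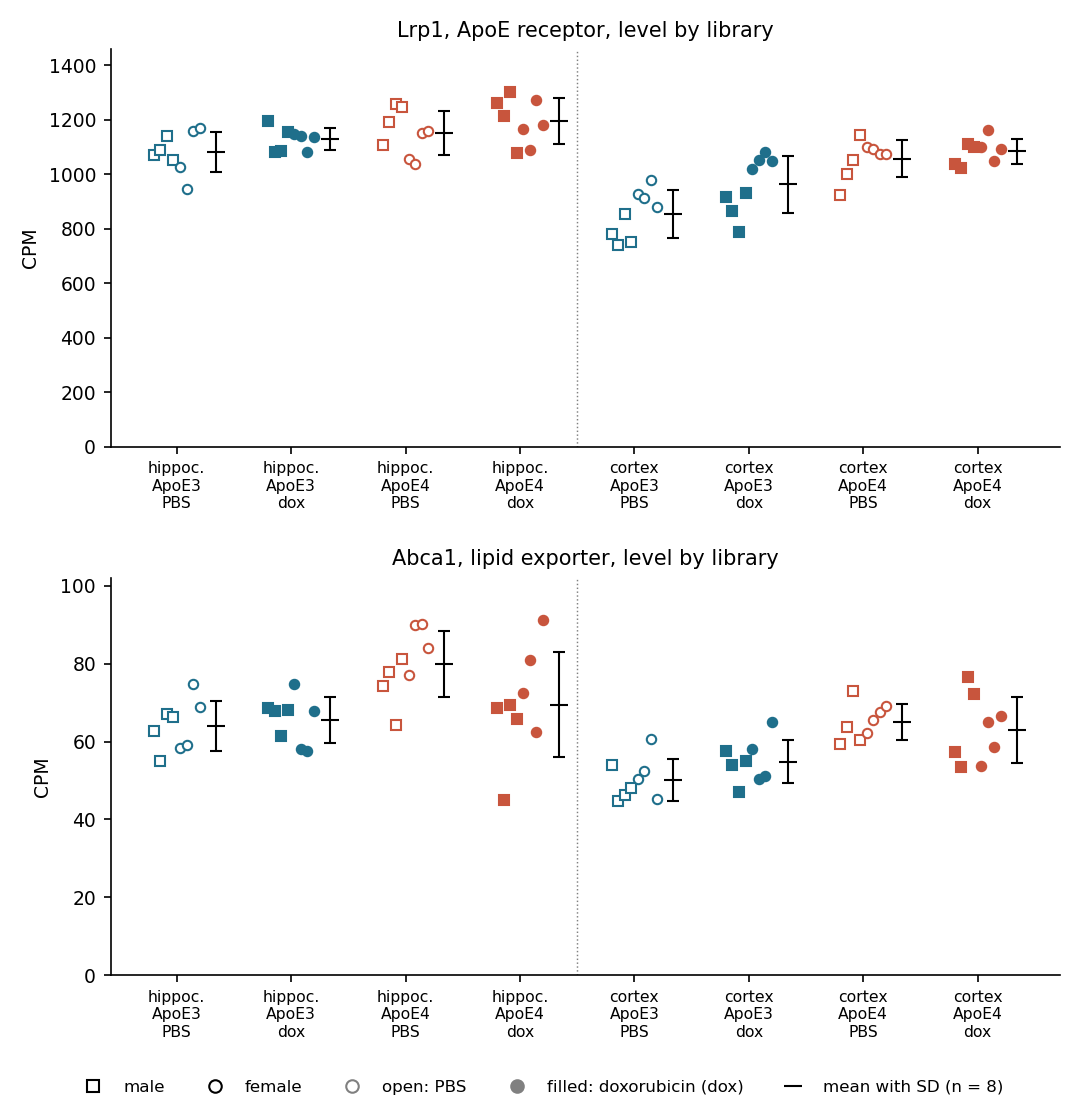
Level of Lrp1 (top) and Abca1 (bottom) in CPM for each of 64 libraries by region, genotype and treatment; squares are males, circles females, filled symbols doxorubicin, and the bar is the mean with SD (n = 8). In cortex of PBS rats 7 of 8 ApoE4 libraries lie above the highest ApoE3 library for Lrp1 and 6 of 8 for Abca1.

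Read against the background, the counts of members called by genotype are small numbers. In PBS rats 2 of 8 members were called in hippocampus, where 3.81% of genes were (588 of 15416), and 3 of 8 in cortex, where 18.2% were (2788 of 15315). In doxorubicin rats it was 1 of 8 in hippocampus against 3.63% and 2 of 8 in cortex against 12%. The median log2 difference of the 8 members was 0.02 in PBS hippocampus and 0.09 in PBS cortex, beside -0.00 and -0.01 over all tested genes. In PBS rats Sort1 was at -0.10 and -0.06 in hippocampus and cortex, Abcg1 at 0.03 and -0.04, Clu at 0.12 and -0.01, and Lpl at -0.07 and 0.18, and none of the 4 genes was called. The comparisons with doxorubicin and with genotype share the PBS libraries.

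Marker levels of the cells that make or use ApoE differed between the genotypes in cortex of PBS rats. The summed level of 12 astrocyte markers, none at 0 in any library, ran from 4375 to 5804 CPM in ApoE3 cortex (median 4839) and from 4813 to 5718 CPM in ApoE4 cortex (median 5387), and 5 of the 12 were called higher in ApoE4. The sum of 10 microglial markers, none at 0, ran from 361 to 495 CPM in ApoE3 and from 322 to 394 CPM in ApoE4 cortex, with 6 of 10 called lower and 1 higher. The sum of 12 meningeal fibroblast markers, none at 0, ran from 201 to 330 CPM in ApoE3 and from 232 to 591 CPM in ApoE4 cortex, with 8 of 12 called higher. The sum of 9 endothelial markers, none at 0, ran from 401 to 509 CPM in ApoE3 and from 479 to 627 CPM in ApoE4 cortex, with 6 of 9 called higher. These counts stand beside 18.2% of all genes called in PBS cortex, 1475 higher in ApoE4 and 1313 lower. In hippocampus of PBS rats the astrocyte sum ran from 5541 to 6622 CPM in ApoE3 and from 5771 to 7153 CPM in ApoE4. There 1 of 12 markers was called, beside 3.81% of all genes. The microglial median was 453 CPM in ApoE3 and 391 CPM in ApoE4 hippocampus of PBS rats, the same direction as in cortex. The meningeal medians there were 508 and 415 CPM and the endothelial ones 512 and 432 CPM, opposite in direction to cortex. All 3 sums had overlapping ranges in hippocampus. The part of these levels in the differences of the donor row, Lrp1 and Abca1 was not tested.

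The wider pathway was read from 8 lists with 112 matched genes other than the members. In PBS cortex 24 of 112 (21.4%) were called, 21 higher in ApoE4 and 3 lower, beside 18.2% of all genes. In PBS hippocampus 3 of 111 (2.7%) were called, beside 3.81% of all genes. In doxorubicin rats it was 14 of 112 (12.5%) in cortex, beside 12% of all genes, and 7 of 111 (6.31%) in hippocampus, beside 3.63%. All but the last lie near or below the share over all genes, so the shares alone say nothing particular about these lists. By direction, the 21 higher and 3 lower in PBS cortex stand beside 1475 higher and 1313 lower over all genes. In doxorubicin cortex 10 were higher and 4 lower, beside 959 and 878 over all genes. This lean to higher levels was not tested. Among lipoprotein receptors 5 of 19 rose in PBS cortex and 0 fell (median 0.10), beside the 18.2% of all genes, led by Lrp6, a Wnt co-receptor of the same family (0.30, SE 0.044), the scavenger receptor Stab1 (1.00, SE 0.164) and Lrp4, the agrin receptor (0.44, SE 0.074). Lrp4 was also called in hippocampus of PBS rats (0.24, adjusted p = 0.000843), and these 4 calls held in all 7 settings tried. Among ABC transporters other than members 3 of 15 rose in PBS cortex, a share near that of all genes: Abca8a (0.28), Abca9 (0.53) and Abca12 (0.89). Abca12 was lost without the libraries high in choroid plexus markers (adjusted p = 0.0651).

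Of the LXR and SREBP regulators, which set the transcription of these genes, 3 of 16 rose in PBS cortex and 1 fell. This count is near the 18.2% of all genes called there, so it says nothing particular about the list. Rxra, the partner of LXR, was higher by 0.34 (SE 0.070, adjusted p = 0.00056), Ppara by 0.58 (SE 0.153) and Rxrb was lower by -0.15 (SE 0.036). In doxorubicin cortex Rxra was at 0.22 (adjusted p = 0.0289) and Rxrb at -0.22 (adjusted p = 5.06e-05). In hippocampus 0 of 16 regulators were called in PBS or doxorubicin rats, where 3.81% and 3.63% of all genes were, so a count of 0 is no contrast with cortex. Among genes that handle cholesterol inside the cell, Soat1, which stores cholesterol as ester, rose by 0.25 in PBS cortex (adjusted p = 0.0158, and 0.0542 without the libraries high in choroid plexus markers). Of the pair that releases cholesterol from lysosomes, Npc1 rose by 0.18 and Npc2 fell by 0.20 on the log2 scale (adjusted p = 0.0218 and 0.0223). Without the same libraries Npc1 had an adjusted p of 0.0605, whereas Npc2 was called in all 7 settings. Trem2, a microglial receptor that binds ApoE and clusterin, rose by 0.33 in PBS cortex (SE 0.114, adjusted p = 0.0371) and by 0.43 in doxorubicin hippocampus (SE 0.103, adjusted p = 0.0113). The first call was lost when only the PBS libraries were fitted (adjusted p = 0.0545) and the second without the libraries high in choroid plexus markers (0.124).

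Apoc1, an apolipoprotein gene that neighbours Apoe in the RefSeq gene order of GRCr8, had the smallest p of the apolipoprotein list in all 4 genotype comparisons. In PBS hippocampus it ran from 4.27 to 7.02 CPM in ApoE3 and from 9.65 to 15.1 CPM in ApoE4, with no overlap, a log2 difference of 1.09 (SE 0.112, adjusted p = 2.73e-08). In doxorubicin hippocampus it was 3.97 to 6.71 CPM in ApoE3 and 10.9 to 14.7 CPM in ApoE4, a log2 difference of 1.27 (SE 0.112, adjusted p = 1.08e-09). In cortex the differences were 0.83 (SE 0.175, adjusted p = 0.000912) in PBS and 0.52 (SE 0.177, adjusted p = 0.0487) in doxorubicin rats, and the latter call was lost with no low count filter or without the libraries high in choroid plexus markers (adjusted p up to 0.0758). The other 5 genes of that list were not called in any of the 4.

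By the number of called genes, regions differed far more than treatments or genotypes. For Abca1 and Lrp1, however, the genotype difference in PBS cortex was about as large as the regional one in ApoE3 PBS rats. In ApoE3 PBS rats 7 of 8 members were called and all 7 were higher in hippocampus than in cortex, where 51% of genes were called (4241 higher and 3634 lower of 15428). In ApoE4 PBS rats 6 of 8 were called, all higher in hippocampus, against 50.4% of genes (3815 higher and 3963 lower of 15432). The median difference of the 8 members was 0.35 in ApoE3 and 0.28 in ApoE4 rats, beside 0.02 and 0.00 over all tested genes.

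Lpl, which encodes the enzyme that frees fatty acids from triglyceride-rich particles and that is known to be rich in hippocampal neurons, had the largest difference. In ApoE3 PBS rats the hippocampal libraries held 62.1 to 93.4 CPM (median 71.2) and the cortical ones 7.44 to 13.4 CPM (median 9.55). In ApoE4 PBS rats they held 56.8 to 111 CPM (median 65.5) and 8.84 to 15.3 CPM (median 10.6). The regions never overlapped: each of the 32 rats had more Lpl in its hippocampus, by 4.03 to 11.3 times with a median of 6.43. The fitted log2 difference was 2.88 (SE 0.118, 7.36-fold, 95% interval 6.27 to 8.65, adjusted p = 2.94e-20) in ApoE3 and 2.60 (SE 0.131, 6.08-fold, 95% interval 5.09 to 7.26, adjusted p = 1.19e-17) in ApoE4. The difference between the genotypes was -0.24 (SE 0.173, adjusted p = 0.576).

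**Figure D4:**
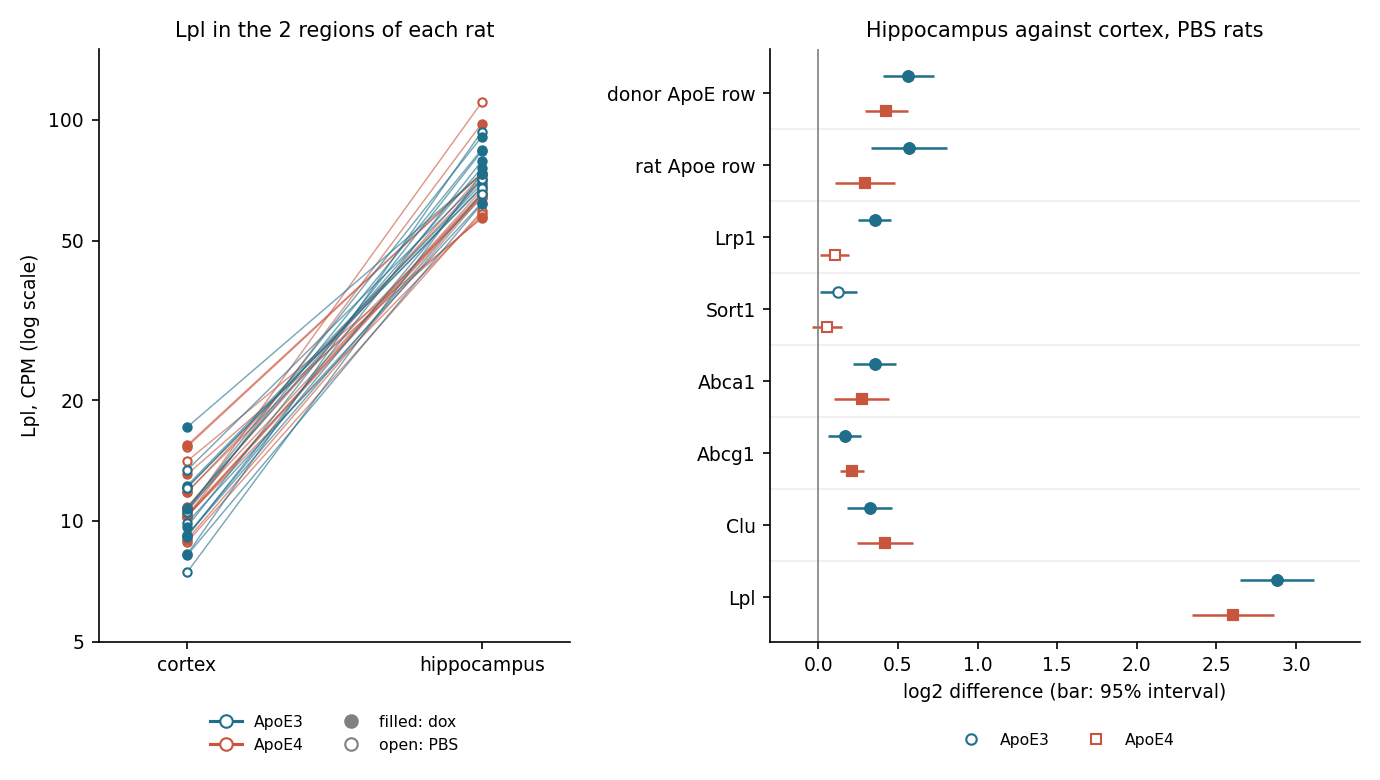
Left, Lpl in CPM on a log scale in cortex and hippocampus of 32 rats, with a line per rat (filled symbols doxorubicin); right, fitted log2 difference of hippocampus against cortex for 8 members in PBS rats with 95% intervals, filled where the adjusted p is under 0.05. Every line rises, and Lpl stands at 2.88 and 2.60 while the called differences of the other members lie between 0.17 and 0.57.

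Both ApoE rows were higher in hippocampus. The donor row was higher in the hippocampus of 32 of 32 rats, with log2 differences of 0.57 in ApoE3 (SE 0.080, 1.48-fold, adjusted p = 3.60e-07) and 0.43 in ApoE4 (SE 0.069, 1.34-fold, adjusted p = 3.98e-06). The rat Apoe row gave 0.57 in ApoE3 (SE 0.121, adjusted p = 0.000172) and 0.29 in ApoE4 (SE 0.096, adjusted p = 0.0119), and it was higher in hippocampus in 31 of 32 rats. The astrocyte marker sum was also higher there, at 5541 to 6622 CPM in hippocampus against 4375 to 5804 CPM in cortex of ApoE3 PBS rats, with 8 of 12 markers called higher. In ApoE4 PBS rats it held 5771 to 7153 CPM in hippocampus against 4813 to 5718 CPM in cortex, with 6 markers called higher and 1 lower. Of all genes 51% were called between regions in ApoE3 (4241 higher in hippocampus, 3634 lower) and 50.4% in ApoE4 PBS rats (3815 higher, 3963 lower). The part of the astrocyte marker sum in the regional difference of ApoE was not tested.

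Among receptors, Lrp1 was higher in hippocampus by 0.35 in ApoE3 (SE 0.053, adjusted p = 8.08e-07, 8 of 8 rats) and by 0.10 in ApoE4 rats (SE 0.046, adjusted p = 0.0618, 6 of 8 rats), where hippocampal libraries held 1037 to 1259 CPM and cortical ones 925 to 1145 CPM. In ApoE4 the value sat at the threshold, since 9 of 16 fits without 1 library called it and DESeq2 did as well (adjusted p = 0.0242). The 7 fits that did not were without the hippocampus of rats 3, 4, 7 or 24 or the cortex of rats 1, 3 or 19. Sort1 was at 0.13 in ApoE3 (SE 0.060, adjusted p = 0.0785) and 0.05 in ApoE4 (SE 0.048, adjusted p = 0.381). With the rat as a replicate block, which compares the regions within each animal, Sort1 in ApoE3 passed (0.13, adjusted p = 0.0393), as it did without the cortex of rat 58 (adjusted p = 0.0419).

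Both exporters were higher in hippocampus in both genotypes. Abca1 was higher in hippocampus by 0.36 in ApoE3 (SE 0.069, adjusted p = 5.61e-05) and by 0.27 in ApoE4 (SE 0.089, adjusted p = 0.0110). Abcg1 was higher by 0.17 in ApoE3 (SE 0.054, adjusted p = 0.00980) and by 0.21 in ApoE4 (SE 0.039, adjusted p = 2.93e-05), from 69.5 to 79.5 CPM in hippocampus against 58.3 to 75.3 CPM in cortex of ApoE3 PBS rats. Without the libraries high in choroid plexus markers, Abcg1 in ApoE3 had an adjusted p of 0.0755 and Abca1 in ApoE4 of 0.0524, whereas Sort1 in ApoE4 passed (0.12, adjusted p = 0.0264). The region by genotype terms in PBS rats called 0 of 8 members, against 0.13% of genes (20 of 15415).

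In the wider pathway 61 of 112 genes (54.5%) were called between regions in ApoE3 PBS rats, 46 higher in hippocampus and 15 lower, and 50 of 112 (44.6%) in ApoE4, 35 higher and 15 lower. These shares are near or below the 51% and 50.4% of all genes. Lrpap1, the chaperone of LRP1, was higher in hippocampus by 0.38 (SE 0.031) in ApoE3 and 0.24 (SE 0.038) in ApoE4. The sorting receptor Sorcs1, a relative of Sort1, was lower by -1.51 (SE 0.091) and -1.47 (SE 0.082). Mylip, the LXR-induced ligase that sends the LDL receptor for degradation, was higher by 0.86 (SE 0.074) and 0.72 (SE 0.062). Sel1l, which is needed for lipase maturation, was higher by 0.49 (SE 0.041) and 0.36 (SE 0.038).

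Clu, which encodes clusterin or apolipoprotein J, was higher in the hippocampus of 32 of 32 rats. The log2 difference was 0.32 (SE 0.071, adjusted p = 0.000285) in ApoE3 and 0.42 (SE 0.089, adjusted p = 0.000197) in ApoE4 PBS rats. Its highest hippocampal libraries were those high in choroid plexus markers. Rat 7 (ApoE4, PBS) had 1574 CPM of Clu beside a choroid plexus sum of 13576 CPM, and rat 51 (ApoE3, doxorubicin) had 1225 beside 6826 CPM. Rat 65 (ApoE3, doxorubicin) had 1197 CPM of Clu beside 5692, and rat 26 (ApoE4, PBS) had 1196 beside 6390. The remaining hippocampal libraries with more than 1000 CPM of Clu were rat 10 (1133 beside 2482) and rat 37 (1093 beside 3590), whereas the others held 820 to 974 CPM.

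Of the 12 matched choroid plexus markers, 7 were above 0 in all 64 libraries, and Prlr, Cldn2, Sostdc1, Kcnj13 and Steap1 were at 0 in 7, 6, 4, 1 and 1 libraries. The choroid plexus sum ran from 6.77 to 13576 CPM over hippocampal and from 5.71 to 878 CPM over cortical libraries. Without the libraries above 500 CPM, Clu remained higher in hippocampus by 0.24 in ApoE3 (SE 0.054, adjusted p = 0.0005) and by 0.25 in ApoE4 (SE 0.040). The doxorubicin change of Clu in ApoE4 hippocampus moved from -0.17 (SE 0.118) to -0.06 (SE 0.039), and the genotype difference in PBS hippocampus from 0.12 (SE 0.105) to -0.01 (SE 0.042).

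**Figure D5:**
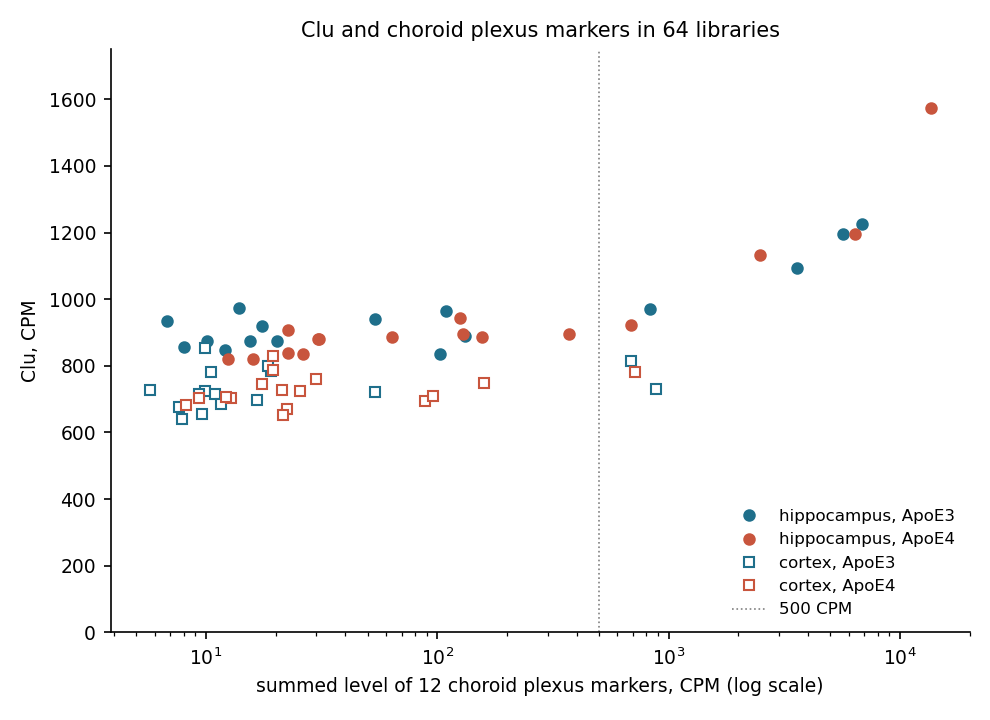
Clu in CPM against the summed level of 12 choroid plexus markers in CPM (log scale) in 64 libraries; filled circles are hippocampus, open squares cortex, colours the genotypes, and the dotted line marks 500 CPM. The 6 hippocampal libraries with more than 1000 CPM of Clu lie at the right, with marker sums from 2482 to 13576 CPM.

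Sex was a covariate of these fits, and it was also compared. Lrp1 in cortex was higher in females by 0.16 (SE 0.031, 1.11-fold, adjusted p = 0.0111), the only 1 of 8 members called there, against 0.705% of genes (108 of 15315). In ApoE3 PBS cortex the 4 females held 881 to 980 CPM of Lrp1 and the 4 males 743 to 854 CPM, with no overlap, and under doxorubicin the females held 1019 to 1084 and the males 790 to 932 CPM. In ApoE4 cortex the ranges overlapped, at 1074 to 1099 CPM in females and 925 to 1145 CPM in males of the PBS group. The call held in all 32 fits without 1 library and was at an adjusted p of 0.0525 without the libraries high in choroid plexus markers. In hippocampus 0 of 8 members were called between sexes, against 0.11% of genes (17 of 15416 with edgeR, 48 with DESeq2), and 2 members had an unadjusted p under 0.05.

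The doxorubicin effect on the donor row differed by sex in ApoE3 cortex. PBS males held 1795, 1800, 2042 and 2246 CPM and doxorubicin males 1437, 1633, 1638 and 1644 CPM, so the males did not overlap and the treated mean was 80.6% of the PBS mean. PBS females held 1279, 1610.5, 1661 and 1765 CPM and doxorubicin females 1654, 1696, 1890.5 and 1965 CPM, with a treated mean of 114% of the PBS mean. The female minus male difference in the log2 change was 0.51 (SE 0.128, 95% interval 0.26 to 0.77, adjusted p = 0.0340), 1 of 8 members against 2.57% of genes (380 of 14775). The call held in 7 of 16 fits without 1 library, with an adjusted p of up to 0.0844 without the doxorubicin library of rat 65, and was also lost without PBS rats 37, 45, 58 or 61 or doxorubicin rats 47, 49, 51 or 72. Rats were numbered in blocks by sex and treatment, so a batch of 4 animals cannot be told apart from this difference.

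Sort1 in ApoE3 cortex had the opposite sign, -0.38 (SE 0.108, adjusted p = 0.0608 with edgeR and 0.0254 with DESeq2), and it passed with edgeR without doxorubicin rats 51 or 66. Its means under doxorubicin were 89.2% of the PBS mean in females and 117% in males. The sex by treatment terms called 0 of 8 members in the other 3 settings. The background was 0% in ApoE3 hippocampus (0 of 14899 genes, 663 at an unadjusted p under 0.05, 0 with DESeq2) and 0% in ApoE4 hippocampus (0 of 14873, 519 and 1). In ApoE4 cortex it was 0.00674% (1 of 14838 genes), and the donor row was at -0.06 (95% interval -0.30 to 0.19).

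Over the 8 groups, medians of Abcg1 ran from 64.2 to 76.9 CPM, of Sort1 from 781 to 954 CPM, of Lrp1 from 868 to 1197 CPM, of Clu from 706 to 927 CPM and of Abca1 from 49.3 to 79.5 CPM. For Abca1 and the rat Apoe row, all 7 pairs of neighbouring groups in the order of medians differed by less than 1 SD. For Abcg1, Clu, Lpl, Lrp1 and Sort1, 6 of 7 pairs did, the gap lying between the regions for Lpl, Clu and Abcg1. CPM values are not divided by length, so levels of different genes are not compared.

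The hippocampus and cortex of a rat share the animal, so it was asked whether a rat with a high value in one region had a high value in the other. Over 32 rats, after removal of group and sex means, Abca1 had Pearson's r of 0.49 (permutation p = 0.0048, adjusted over 8 members 0.0384) and Spearman's rho of 0.42 (permutation p = 0.0181, adjusted 0.145). The rats were shuffled over all groups and not within them. After the means are removed, such a shuffle tends to give p-values that are too small. The r of Abca1 is therefore given as a description and not as a call. Without the 2 rats whose hippocampal value lay farthest from the median, r was 0.38 (permutation p = 0.0368, adjusted 0.147). The adjusted p was thus above the threshold, with a lower r and with fewer rats. The other 7 members had r from -0.10 to 0.32 with adjusted permutation p of 0.314 or more.

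Genes whose levels followed each member most closely were taken from about 10200 genes, as the correlation of log2 CPM over 64 libraries after removal of group and sex means. The donor row was most like Gnai2 (r = 0.76), Rps2 (0.75), Lrp5 (0.74), Rpl37a (0.74) and Ptpn6 (0.73). Clu was most like Pbxip1 (0.94) and Fxyd1 (0.93), Sort1 like Rab6b and Cadm3 (0.86 each), and Lrp1 like Tnrc18 and Prex1 (0.77 each). Abca1 was most like Slc4a4, a bicarbonate transporter of astrocytes (0.65), and the endothelial phosphatase gene Ptprb (0.59), and the rat Apoe row like the astrocyte connexin gene Gja1 (0.58) and the replication gene Gins2 (0.53). Abcg1 was most like Rusc2 and Setd1b (0.53 each), and Lpl like Rgs9 (0.60) and Setd4 (0.59). Points that share a library also share its depth, scaling and tissue makeup, so these values describe the libraries only.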

How the data were processed

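RNA was prepared with a Qiagen RNeasy Plus Universal kit and libraries with NEBNext Ultra II RNA, per the labels' protocols. The submitters' processing notes name STAR 2.5.2b as a tool of the authors, and DESeq2 without a version. The read counter, genome build and strandedness are not given in the sources used here. Each deposited count table covers the PBS and doxorubicin libraries of 1 region in 1 genotype and holds the authors' raw count for 32644 rows (32551 Ensembl identifiers, 92 spike-ins and 1 donor row). The authors' comparison tables, as deposited, give for doxorubicin against PBS a log2 fold change with its p-value, raw and adjusted, and a signal, in which each library's counts are scaled by its own size factor. Symbols for 15432 identifiers came from them.

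Spike-ins were dropped and the counts analysed with edgeR 4.0.16 under R 4.3.3 (filterByExpr, TMM, quasi-likelihood F-test, Benjamini-Hochberg threshold of 0.05). DESeq2 1.42.0 was an alternative. Adjusted p values in the text come from this edgeR test, over all tested genes, where no other tool is named. The SE was obtained as the size of the log2 change over the root of F, and a 95% interval is 1.96 SE to each side. Doxorubicin was fitted on the 16 libraries of a region and genotype, genotype on the 32 libraries of a region and region on the 32 libraries of a genotype, with sex as a covariate. CPM values use 1 TMM scaling over 64 libraries, and log2 CPM values a prior count of 1. Ratios and same-rat correlations used exact permutation and permutation tests. By their labels, hippocampus and cortex with the same number come from the same rat, and the rat block rests on these labels. The 2 libraries of a rat correlated by a median of 0.08 (from -0.09 to 0.21) in their deviations from group means. With the cortex of other rats the median was -0.003. In 2 of 32 rats the hippocampal library correlated best with the cortex of its own rat. The fits were tested on simulated data, with changes larger than most of those fitted for members under doxorubicin. How often changes that small would be called is not known from that test.

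The members and lists were chosen with earlier results of these data known. Named pathway genes are, per list and comparison, at most the 3 of smallest p, and the most alike genes are the 5 (donor row) or 2 of highest r among genes whose mean log2 CPM reached 3. Nothing says that libraries of a group came from separate litters. The p-values of the fits set a difference against the spread between libraries of these rats. The main region fits did not pair the 2 libraries of a rat. Depth and 8 libraries per group limit the precision.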

Additional observations from a re-analysis of the deposited data

Results flagged for a closer look

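Of 64 groups of 8 libraries (8 members in 8 groups), 7 held a library whose gap to its nearest neighbour passed the 95% critical share of 0.526 of the group's range, and chance gives about 1 in 20. In hippocampus these were Abcg1 at 91.6 CPM in ApoE3 doxorubicin rat 66, Clu at 1133 CPM in ApoE4 doxorubicin rat 10, and Lpl at 111 CPM in ApoE4 PBS rat 7 and at 97.9 CPM in ApoE4 doxorubicin rat 31. Rats 7 and 10 are among the libraries high in choroid plexus markers. In cortex they were Lpl at 17.1 CPM in ApoE3 doxorubicin rat 72, also such a library, and the donor row at 1650 CPM and Sort1 at 695 CPM in ApoE4 doxorubicin rat 31. In that library the donor row was the highest of its group and Sort1 the lowest.

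The doxorubicin change of the donor row differed between females and males in ApoE3 cortex, by 0.51 on the log2 scale (sex by treatment term of edgeR, adjusted p = 0.0340, 4 libraries per sex and treatment).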

How the results depend on the processing

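The count of called members was recomputed under each alternative. DESeq2 called 1 member in place of 0 for doxorubicin in ApoE3 cortex and 2 in place of 1 for sex by treatment there. For ApoE4 against ApoE3 in doxorubicin hippocampus, 0 members in place of 1 were called with DESeq2 size factors and with no low count filter. Without the libraries high in choroid plexus markers, an alternative chosen after seeing the data, 1 member in place of 2 was called by genotype in PBS hippocampus and 0 in place of 1 between sexes in cortex. With 1 library left out, the counts ran from 1 to 2 by genotype in PBS hippocampus, from 0 to 1 in doxorubicin hippocampus and from 0 to 2 for sex by treatment in ApoE3 cortex. With the rat as a replicate block, 8 members in ApoE3 and 6 in ApoE4 were called between regions, against 7 and 6 without it, and the pairing changed no call of a member other than Sort1. The ratio of the ApoE rows passed in 1 comparison by medians and in 2 by means. The same-rat correlation passed in 0 members by rho or without 2 rats and in 1 otherwise, with a shuffle whose p-values tend to be too small. Alternative values of single genes were collected only for members called in some fit and for named pathway genes called in the main fit. Of 617 such values other than those leaving out a library, 585 kept direction and call, 25 lost the call, 7 gained it and 0 reversed. The share that was kept follows in part from this choice of genes. The cause of these shifts was not tested. Depth limits most the rat Apoe row, with 39 to 139 counts per library.

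Over all genes, DESeq2 against edgeR called 145, 1, 77 and 37 against 0 for doxorubicin, 320 against 108 and 48 against 17 between sexes in cortex and hippocampus, 72 against 20 for region by genotype, 126 against 0 for region by treatment in ApoE3, and 766 against 380 and 21 against 1 for sex by treatment in ApoE3 and ApoE4 cortex. Without the libraries high in choroid plexus markers, 334 against 588 and 300 against 559 genes were called by genotype in PBS and doxorubicin hippocampus and 28 against 108 between sexes in cortex. For doxorubicin in ApoE3 and ApoE4 cortex, no low count filter gave 7 and 4 genes, and all 32 libraries of the region in 1 fit gave 10 and 0; for region by treatment in ApoE3 it gave 40 and the block 9.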
